A study of Mus musculus with 9 samples.

Results

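Genes that supply serine, glycine, one-carbon units and amino acids were followed across the 3 genotypes in sorted fetal liver erythroblasts. The members are 10 genes chosen by symbol, Phgdh, Psat1, Psph, Shmt1, Shmt2, Mthfd2, Asns, Slc7a5, Slc3a2 and Slc38a2. Each had exactly 1 probe set with its symbol alone, so the members are 10 of 28939 probe sets outside the array's control block, or 10 of the 19938 genes that such probe sets name. All 10 probe sets passed the filter on low values and were tested.

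The samples were CD71+ Ter119+ erythroblasts with high forward scatter (large cells), sorted by flow cytometry from E14.5 embryo livers. Embryos came from crosses of Th3/+ parents and were wild type, Th3/+ or Th3/Th3, with 3 biological replicates and 3 arrays per genotype. The Th3 allele is a deletion of both adult beta-globin genes, so Th3/+ cells carry 1 such allele and Th3/Th3 cells 2. The strain was made on 129SV and backcrossed to C57BL/6 for 9 generations in all groups. No drug or other agent was given per the labels, which leave unsaid if cells of 1 embryo or of several made up a replicate. The p-values therefore set differences against the spread between samples of a genotype, which may include technical spread. That spread was estimated from all 9 arrays, with information shared across probe sets.

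Serine is made from a glycolytic intermediate in 3 steps. PHGDH oxidises 3-phosphoglycerate, PSAT1 transfers an amino group and PSPH removes the phosphate. Serine hydroxymethyltransferases (SHMT1 in the cytosol, SHMT2 in mitochondria) turn serine into glycine and pass a one-carbon unit to folate, which MTHFD2 oxidises further in mitochondria. Erythroblasts need glycine for heme synthesis, one-carbon units for nucleotides and large amounts of amino acids for globin. Several of the members are textbook targets of the stress transcription factor ATF4.

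Arrays of the same genotype were not equally alike. The second principal component (16.7% of the variance) set Th3/+ replicate 1 and Th3/Th3 replicate 1 (scores of 20.5 and 25.5) apart from the other 7 arrays (-14.9 to 7.7). By their Xist signal, 1 wild type, 1 Th3/+ and 2 Th3/Th3 samples were female, so sex was not balanced. Markers of the sorted cells were bright, with a mean over 11 erythroblast markers of 11.30 to 11.44 (log2) on wild type, 11.24 to 11.33 on Th3/+ and 10.47 to 10.71 on Th3/Th3 arrays. Of those 11 markers, 9 fell in Th3/Th3 against wild type and 0 rose, beside 4.98% and 7.31% of all tested probe sets. Among those that fell was Tfrc, which encodes the sorting marker CD71 (-1.12, limma adjusted p = 0.000192). Of 10 macrophage markers tested, 3 fell, and their mean was 5.52 to 5.82 on wild type, 5.47 to 6.17 on Th3/+ and 5.16 to 5.25 on Th3/Th3 arrays, with Csf1r and Mrc1 not above the filter. Of 21 hepatoblast, megakaryocyte and progenitor markers tested, 0 passed in limma in Th3/Th3 against wild type (2 at an unadjusted p under 0.05). The part of these differences in the results was not tested, and in bulk samples fewer cells of a type and less RNA per cell cannot be told apart.

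In Th3/Th3 cells Psat1, Mthfd2 and Asns rose and Slc7a5 fell against wild type. The other 6 members did not pass the test. Calls were made with limma at a Benjamini-Hochberg adjusted p under 0.05 over all 17742 probe sets tested. With 3 of 10 members called higher and 1 lower, the background was 7.31% of all tested probe sets higher and 4.98% lower. All 3 Th3/Th3 arrays lay above all wild type arrays for 4 members and below them for 1, beside 15.4% and 12.1% of all probe sets. Without Th3/+ and Th3/Th3 replicate 1 together, the arrays that stood apart, 5 members were called, with Psph and Slc38a2 gained and Asns lost. With 1 array left out 0 to 4 members were called. With sex as a covariate 1 was called, as with the arrays of the compared genotypes alone. The median difference over the 10 members was 0.27 on the log2 scale, and over all tested probe sets it was 0.00. Leaving out wild type replicate 1, 2 or 3 lowered the calls over all probe sets from 2181 to 1493, 1444 and 1476. In Th3/+ cells 0 of 10 members were called against wild type, where limma called 0.0282% of all probe sets (3 of 10 members at an unadjusted p under 0.05).

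**Figure D1:**
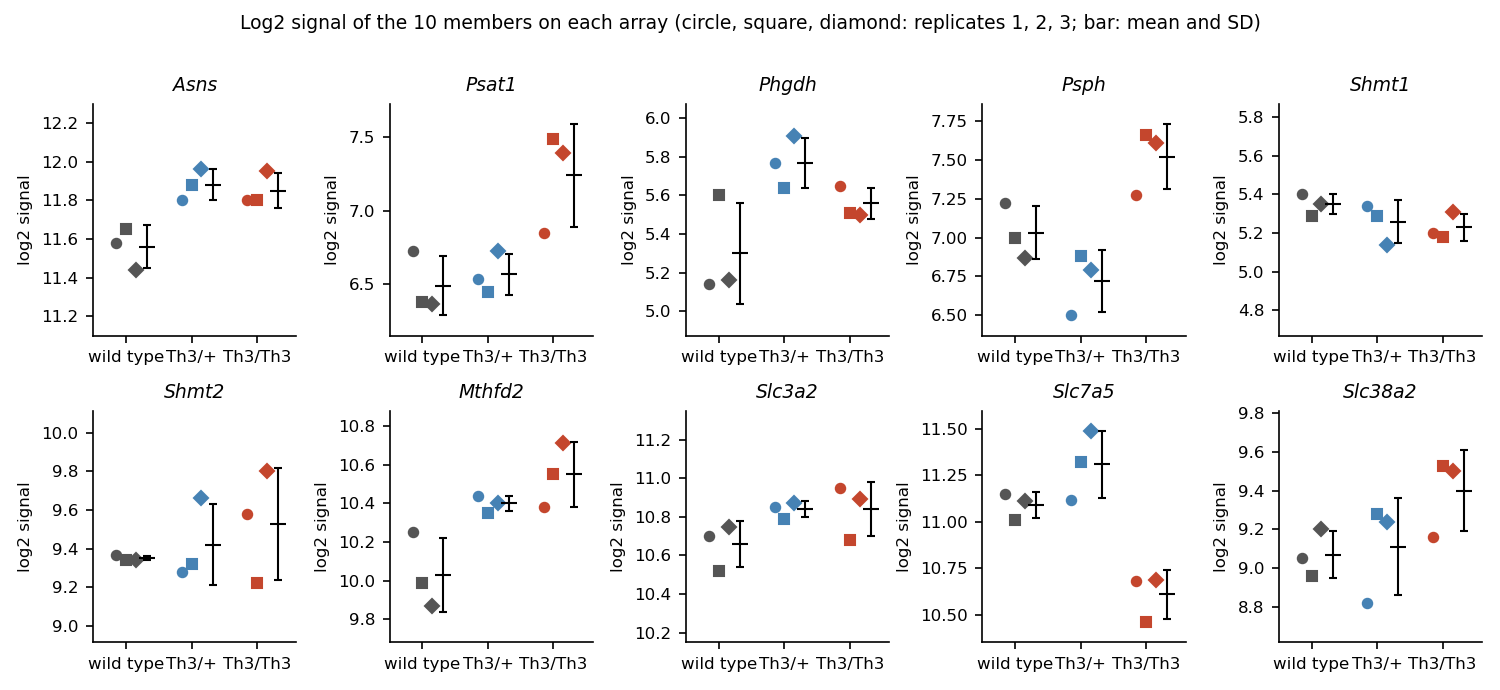
Log2 signal (y axis, each panel with its own range) of each member on the 9 arrays by genotype (x axis), with circle, square and diamond for replicates 1, 2 and 3 and a bar for mean and SD (n = 3). The 3 Th3/Th3 points of Slc7a5 (10.46 to 10.69) lie below all others, those of Psat1 and Psph lie above all others, and for Asns and Mthfd2 both Th3 genotypes lie above wild type.

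Psat1, the aminotransferase of the second step of serine synthesis, had log2 signals of 6.73, 6.38 and 6.37 on the wild type arrays. It had 6.54, 6.45 and 6.73 on the Th3/+ arrays and 6.85, 7.49 and 7.39 on the Th3/Th3 arrays. All 3 Th3/Th3 arrays lay above all others, with replicate 1 the closest to them. Psat1 rose by 0.75 (SE 0.18, 1.68-fold) in Th3/Th3 against wild type (limma adjusted p = 0.0263). The Th3/Th3 mean was 0.67 above Th3/+ (95% interval 0.26 to 1.08, limma adjusted p = 0.0589), which missed the threshold and passed without Th3/Th3 replicate 1 (adjusted p = 0.0124). The Th3/+ mean was 0.08 above wild type (interval -0.33 to 0.49).

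Psph, the phosphatase of the last step, had 7.22, 7.00 and 6.87 on the wild type arrays, 6.50, 6.88 and 6.79 on those of Th3/+ and 7.27, 7.66 and 7.61 on those of Th3/Th3. The Th3/Th3 arrays lay above all others, while wild type and Th3/+ overlapped. Psph was 0.80 higher in Th3/Th3 than in Th3/+ (SE 0.16, 1.74-fold, limma adjusted p = 0.0165). This call was lost without Th3/+ replicate 1 (adjusted p = 0.0526) and without replicate 2 or 3 of Th3/Th3 (0.0579 and 0.0515). Against wild type the difference was 0.49 (interval 0.13 to 0.84, adjusted p = 0.0806), and it passed without Th3/Th3 replicate 1 (0.61, adjusted p = 0.0360) and without both arrays that stood apart (0.61, adjusted p = 0.0231). The Th3/+ mean was lower than wild type by 0.31, a difference that did not pass (interval -0.67 to 0.04).

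Phgdh, the dehydrogenase of the first step, showed another order. Its signals were 5.14, 5.60 and 5.16 on the wild type arrays, 5.77, 5.64 and 5.91 on those of Th3/+ and 5.65, 5.51 and 5.50 on those of Th3/Th3. The Th3/+ arrays all lay above the wild type arrays, and Th3/Th3 overlapped with both. These signals were low, against array medians of 4.97 to 5.05. No comparison passed. The differences were 0.47 for Th3/+ against wild type (interval 0.17 to 0.77, adjusted p = 0.957) and 0.26 for Th3/Th3 against wild type (interval -0.04 to 0.55, adjusted p = 0.265). A further probe set is listed for Phgdh together with Gm6756 and is not a member. It had means of 6.35 in wild type, 6.28 in Th3/+ and 6.02 in Th3/Th3 cells. Its differences from wild type thus had the opposite sign in Th3/+ (-0.07, interval -0.30 to 0.16) and in Th3/Th3 (-0.33, limma adjusted p = 0.0701).

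Mthfd2, the mitochondrial folate dehydrogenase, had 10.25, 9.99 and 9.87 on the wild type arrays, 10.44, 10.35 and 10.40 on those of Th3/+ and 10.38, 10.55 and 10.71 on those of Th3/Th3. All 6 arrays with a Th3 allele lay above the 3 wild type arrays, and the 2 Th3 genotypes overlapped. Mthfd2 rose by 0.51 (SE 0.13, 1.43-fold) in Th3/Th3 against wild type (limma adjusted p = 0.0278). In Th3/+ cells its mean was 0.36 above wild type (interval 0.08 to 0.64), with an unadjusted p of 0.0176 and an adjusted p of 1.00.

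Shmt2, the mitochondrial hydroxymethyltransferase upstream of MTHFD2, did not pass in any comparison. Its 3 wild type arrays held 9.34 to 9.37, the Th3/+ arrays 9.28, 9.32 and 9.66, and the Th3/Th3 arrays 9.58, 9.22 and 9.80. The spread within each Th3 genotype was wider than the distance between the means, and Th3/Th3 minus wild type was 0.18 (interval -0.19 to 0.55). Shmt1, the cytosolic enzyme, was dim, at 5.14 to 5.40 on all 9 arrays against array medians of 4.97 to 5.05. Its Th3/Th3 minus wild type difference was -0.12 (interval -0.30 to 0.06).

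Asns, which makes asparagine from aspartate and glutamine, had 11.58, 11.65 and 11.44 on the wild type arrays, 11.80, 11.88 and 11.96 on those of Th3/+ and 11.80, 11.80 and 11.95 on those of Th3/Th3. As for Mthfd2, all 6 arrays with a Th3 allele lay above wild type and the 2 Th3 genotypes overlapped. Asns rose by 0.29 (SE 0.08, 1.22-fold) in Th3/Th3 against wild type (limma adjusted p = 0.0436), the smallest of the 4 differences called there. The Th3/+ mean was 0.32 above wild type (interval 0.14 to 0.50), without passing the test (adjusted p = 0.811). Th3/Th3 and Th3/+ differed by -0.03 (interval -0.21 to 0.15).

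These 3 calls against wild type were lost without some single arrays, while the differences kept their sign. With 1 array left out the difference was 0.63 to 0.95 for Psat1, 0.43 to 0.62 for Mthfd2 and 0.23 to 0.34 for Asns. A fit on fewer arrays also holds less information on the spread. Calls over all probe sets then moved as well, to between 1444 and 2310 from 2181. Without wild type replicate 2 or 3, or Th3/Th3 replicate 2 or 3, the adjusted p of Psat1 was 0.0930, 0.0945, 0.0873 and 0.0832, and that of Mthfd2 was 0.0886, 0.0930, 0.0738 and 0.0880. Asns lost its call without any 1 of the 9 arrays except Th3/+ replicate 1 (adjusted p of 0.0520 to 0.130). Without both arrays that stood apart, Psat1 and Mthfd2 were called and Asns was not (adjusted p = 0.0564). With sex as a covariate none of these 3 was called (differences of 0.76, 0.51 and 0.30, adjusted p = 0.0520, 0.0582 and 0.0712).

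The promoters of the 3 genes that rose are shown because ATF4 is known to act on Asns through a composite element next to its start site. The 250 bases before each annotated start were read from RefSeq (GRCm38.p6) and searched on both strands for TGATGNAAN, a form of that element. All 3 genes lie on the minus strand and are printed 5′ to 3′, Asns from chr6:7693210-7693459, Psat1 from chr19:15925060-15925309 (the first of its 2 listed starts) and Mthfd2 from chr6:83317605-83317854, with the matched bases in capitals.
Asns: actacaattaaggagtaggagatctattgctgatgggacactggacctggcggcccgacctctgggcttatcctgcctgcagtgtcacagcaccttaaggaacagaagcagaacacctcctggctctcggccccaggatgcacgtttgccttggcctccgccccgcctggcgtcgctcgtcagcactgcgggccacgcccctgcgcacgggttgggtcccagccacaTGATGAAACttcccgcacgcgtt
Psat1: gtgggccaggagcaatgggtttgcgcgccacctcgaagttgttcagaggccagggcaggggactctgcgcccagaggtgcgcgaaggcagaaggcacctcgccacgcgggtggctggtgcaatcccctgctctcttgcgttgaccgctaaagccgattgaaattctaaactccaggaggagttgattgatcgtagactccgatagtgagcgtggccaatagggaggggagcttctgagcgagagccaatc
Mthfd2: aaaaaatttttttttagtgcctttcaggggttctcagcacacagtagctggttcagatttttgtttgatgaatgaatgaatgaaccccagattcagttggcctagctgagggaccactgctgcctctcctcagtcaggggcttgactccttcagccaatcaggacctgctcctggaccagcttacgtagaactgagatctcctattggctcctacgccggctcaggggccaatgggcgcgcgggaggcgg
Asns held 1 match, TGATGAAAC, from 23 to 15 bases before the start. This match was given in advance, as the motif is a form of the element known from Asns. It was the only match among 9 members with an entry, and 3.44% of all 32851 promoter windows of this length held one. The search thus gives no result about the members as a group. The windows of Psat1 and Mthfd2, whose differences were larger than that of Asns, held none, which says only that these letters are not within them. Slc7a5 had no entry.

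Slc7a5, the LAT1 light chain that imports large neutral amino acids such as leucine, had 11.15, 11.01 and 11.11 on the wild type arrays, 11.12, 11.32 and 11.49 on those of Th3/+ and 10.68, 10.46 and 10.69 on those of Th3/Th3. The Th3/Th3 arrays lay below all others, and wild type and Th3/+ overlapped. Slc7a5 fell by 0.48 against wild type (SE 0.11, 1.40-fold, limma adjusted p = 0.0202) and by 0.70 against Th3/+ (SE 0.11, 1.62-fold, limma adjusted p = 0.00599). The difference from Th3/+ was called under all 19 alternatives. That from wild type was lost without wild type replicate 1 or 3 (adjusted p = 0.0725 and 0.0642) and without Th3/Th3 replicate 2 (0.0683), and it was called with sex as a covariate. Slc7a5 against both genotypes and Psph against Th3/+ were also called without the 2 arrays that stood apart. The Th3/+ mean was 0.22 above wild type (interval -0.03 to 0.46) and 0.46 above the midpoint of the other genotypes (interval 0.24 to 0.67), with an unadjusted p of 0.000881 and an adjusted p of 0.146.

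Slc3a2 encodes 4F2hc (CD98), the heavy chain that brings LAT1 and related light chains to the membrane. Its signals were 10.70, 10.52 and 10.75 on the wild type arrays, 10.85, 10.79 and 10.87 on those of Th3/+ and 10.95, 10.68 and 10.89 on those of Th3/Th3. The Th3/+ arrays lay above wild type, and Th3/Th3 overlapped with both. No comparison passed. Th3/Th3 minus wild type was 0.18 (interval -0.05 to 0.41), against -0.48 (interval -0.73 to -0.24) for its partner Slc7a5, and the 2 intervals did not overlap.

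Slc38a2 encodes SNAT2, a sodium-coupled importer of small neutral amino acids such as alanine and glutamine. It had 9.05, 8.96 and 9.20 on the wild type arrays, 8.82, 9.28 and 9.24 on those of Th3/+ and 9.16, 9.53 and 9.50 on those of Th3/Th3. The genotypes overlapped, and replicate 1 was the lowest array in both Th3 groups. Th3/Th3 minus wild type was 0.32 (interval -0.04 to 0.69, adjusted p = 0.250). Of the 19 alternatives it was called under 1, without both arrays that stood apart (0.44, adjusted p = 0.0439).

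**Figure D2:**
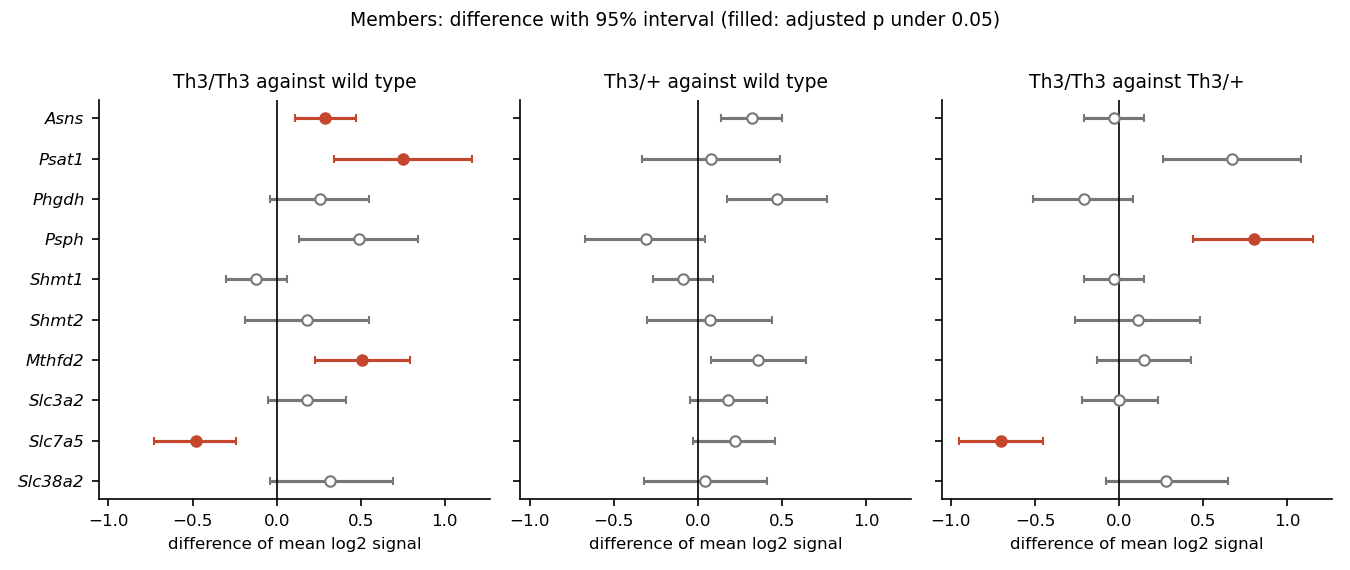
Difference of mean log2 signal (x axis) with its 95% interval for each member (y axis) in 3 comparisons, filled red where the limma adjusted p was under 0.05. Psat1, Mthfd2 and Asns lie above 0 and Slc7a5 below in Th3/Th3 against wild type, no member is filled in Th3/+ against wild type, and Psph (0.80) and Slc7a5 (-0.70) are filled in Th3/Th3 against Th3/+.

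Across the members the Th3/+ level took no single position between the other genotypes. For Asns, Mthfd2, Phgdh and Slc3a2 all 3 Th3/+ arrays lay above all 3 wild type arrays, 4 of 10 members where 4.40% of all tested probe sets did so. Phgdh was dim, and the probe set it shares with Gm6756 was not higher in Th3/+ cells. At an unadjusted p under 0.05, 3 of 10 members differed between Th3/+ and wild type (Asns, Phgdh and Mthfd2), beside 3.64% of all probe sets and 0 members after adjustment. For Psat1, Psph and Slc7a5 it was Th3/Th3 that lay apart from Th3/+, with no overlap between their arrays, as for 22.8% of all probe sets in either direction. Of these, Psph and Slc7a5 passed the test, 1 higher and 1 lower, beside 4.01% and 3.26% of all probe sets. Both comparisons use the same Th3/+ arrays. Against the midpoint of wild type and Th3/Th3, 0 of 10 members were called in limma (4 at an unadjusted p under 0.05, beside 7.83% of all probe sets), and 14 of all probe sets were (0.0789%). That total moved from 1 to 33 when single arrays were left out, with 33 reached without Th3/Th3 replicate 1.

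The members' neighbours in the same pathways were taken from fixed lists. In the folate and one-carbon list, 0 of 13 tested genes rose and 1 fell in Th3/Th3 against wild type (7.31% and 4.98% of all probe sets), with a median difference of -0.10 (0.00 over all genes). The gene that fell was Tyms, thymidylate synthase, which spends one-carbon units on DNA synthesis (10.73 ± 0.05 in wild type and 10.35 ± 0.07 in Th3/Th3, SD, n = 3, difference -0.38, limma adjusted p = 0.0243). Its call was lost without any 1 wild type array, or without Th3/Th3 replicate 2 or 3 (adjusted p of 0.0597 to 0.0780). Mthfd1, the cytosolic folate enzyme of purine supply, had means of 6.03 and 6.27 and did not pass. Among 13 genes that use or break down serine, glycine and methionine, 0 rose and 1 fell, with a median of 0.09. The gene that fell was Alas2, which condenses glycine with succinyl-CoA in the first step of heme synthesis (-0.66, adjusted p = 0.00274). Alas2 is also counted among the erythroblast markers above, of which 9 of 11 fell. Without Th3/+ replicate 3, 2 genes of this list were called.

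Of 7 mitochondrial carriers of serine, glycine, aspartate and glutamate, 1 rose and 1 fell, beside 7.31% and 4.98% of all probe sets. Slc25a38, the mitochondrial glycine carrier needed for heme synthesis, had 9.15, 9.11 and 9.34 on the wild type and 8.91, 8.01 and 8.38 on the Th3/Th3 arrays, without overlap. It fell by 0.77 (SE 0.20, limma adjusted p = 0.0383), a call lost without any 1 array except Th3/Th3 replicate 1 (adjusted p of 0.0526 to 0.121). Slc25a12, an aspartate and glutamate carrier, rose by 0.48 (adjusted p = 0.0316), lost without wild type replicate 2 or 3, Th3/+ replicate 2 or 3, or Th3/Th3 replicate 3 (adjusted p of 0.0552 to 0.104). Sfxn1, a mitochondrial serine carrier, had means of 7.06 ± 0.31 and 7.22 ± 0.56 and did not pass. In the list of aspartate, glutamine, proline and related metabolism 1 of 15 rose and 0 fell. It was Got1, the cytosolic aspartate aminotransferase (5.69, 6.27 and 6.33 on the wild type and 6.85, 7.53 and 7.74 on the Th3/Th3 arrays, difference 1.28, adjusted p = 0.0221). Its call was lost without wild type replicate 1 or 2 or Th3/Th3 replicate 2 or 3 (adjusted p = 0.0839, 0.0512, 0.0747 and 0.0761). The count of this list was 3 without Th3/+ replicate 1, and 2 without Th3/+ replicate 3 or Th3/Th3 replicate 1.

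Amino acid transporters outside the members went both ways. Of 18 tested, 1 rose and 3 fell in Th3/Th3 against wild type (7.31% and 4.98% of all probe sets), with a median of -0.06. Slc7a11 is left out of these counts because only its Th3/Th3 arrays passed the filter on low values. Slc43a1 encodes LAT3, a leucine importer that needs no heavy chain. It had 11.97, 11.95 and 12.11 on the wild type and 10.88, 10.08 and 10.62 on the Th3/Th3 arrays, and fell by 1.49 (SE 0.17, limma adjusted p = 0.000851). Slc1a5, the glutamine importer ASCT2, had 10.59, 10.46 and 10.74 against 9.29, 9.23 and 9.46, and fell by 1.27 (SE 0.11, adjusted p = 0.000236). Both genes passed under all 19 alternatives, and both differences were larger than that of Slc7a5.

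The dim transporters Slc7a11 and Slc1a4 lay higher on the Th3/Th3 arrays than on all others. Slc7a11, the light chain of the cystine importer that also pairs with 4F2hc, held 3.84 to 4.05 in wild type and 3.78 to 4.18 in Th3/+ cells, below the filter of 4.52 to 4.62 (the 40th percentile of each array). It held 5.45 to 5.62 in Th3/Th3 cells. As it was kept through those arrays alone, these levels are a description and no test is given. Slc1a4, the neutral amino acid transporter ASCT1, held 4.88 to 5.09 in wild type and 5.43 to 5.77 in Th3/Th3 and rose by 0.62 (adjusted p = 0.00665). The third gene that fell, Slc6a9, the glycine importer GLYT1, is named outside the naming rule, after its values were seen. It had 10.81, 10.63 and 11.08 on the wild type and 10.15, 9.51 and 9.99 on the Th3/Th3 arrays, and fell by 0.96 (adjusted p = 0.0121, and 0.0506 without wild type replicate 3). Slc43a1, Slc1a5, Slc1a4 and Slc6a9 had calls of the same direction in Th3/Th3 against Th3/+. That of Slc1a4 was lost without Th3/+ replicate 2 (adjusted p = 0.0511). That of Slc6a9 was lost without wild type replicate 1, Th3/+ replicate 2 or 3, or Th3/Th3 replicate 2 or 3 (0.0600 to 0.133), and it held under 11 of 19 alternatives.

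**Figure D3:**
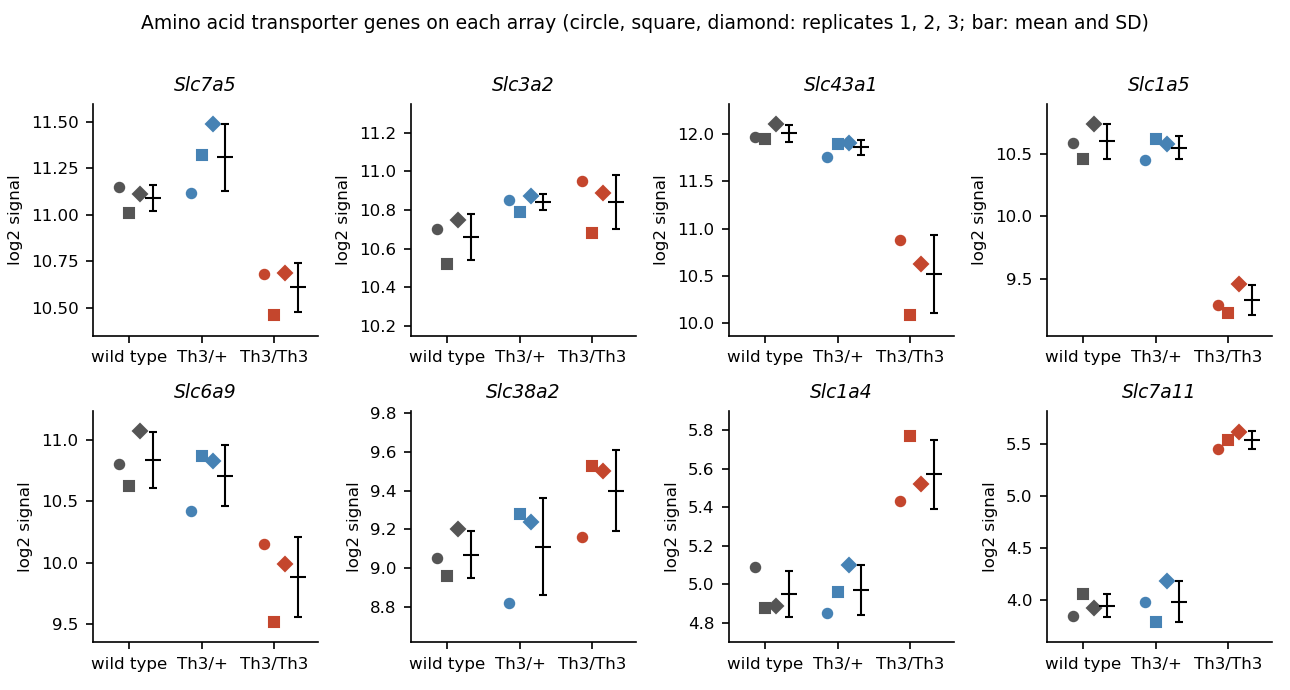
Log2 signal (y axis, each panel with its own range) of 8 amino acid transporter genes on the 9 arrays by genotype (x axis), with circle, square and diamond for replicates 1, 2 and 3 and a bar for mean and SD (n = 3). The Th3/Th3 points of Slc7a5, Slc43a1, Slc1a5 and Slc6a9 lie below all others, those of Slc1a4 and Slc7a11 above, and those of Slc3a2 and Slc38a2 overlap with wild type.

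Genes that sense amino acids at the lysosome and relay them to mTORC1 were listed with genes of mTORC1 itself and of its regulators and targets. Of 24 tested genes in this list, 9 were higher and 2 lower in Th3/Th3 against wild type (7.31% and 4.98% of all probe sets), with a median of 0.40. Lamtor3 and Lamtor5, subunits of the Ragulator scaffold, rose by 0.74 and 0.70, and Flcn (folliculin), which acts on the Rag GTPases, by 0.97 (adjusted p = 0.00314, 0.00673 and 0.00599). Eif4ebp1, the translation repressor that mTORC1 phosphorylates, rose by 0.98, from 6.85, 6.84 and 6.41 in wild type to 7.63, 7.44 and 7.98 in Th3/Th3 cells (adjusted p = 0.00555). Its Th3/+ arrays held 7.07 to 7.13, above wild type and below Th3/Th3. The 2 genes that fell, named outside the naming rule, were Rragd (-0.85) and the mTORC1 subunit gene Rptor (-0.34, limma adjusted p = 0.0288 and 0.0446). Their calls held under 13 and 3 of 19 alternatives. The count of 11 called fell to between 6 and 9 without single wild type or Th3/Th3 arrays (6 without wild type replicate 3, 7 without wild type replicate 1 or 2 or Th3/Th3 replicate 2).

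Among 17 stress regulators tested 4 rose and 2 fell in Th3/Th3 against wild type, where 7.31% of all probe sets rose and 4.98% fell. Atf4 itself had 10.92, 10.94 and 10.79 on the wild type arrays, 11.06, 11.01 and 11.02 on those of Th3/+ and 11.07, 10.77 and 10.96 on those of Th3/Th3, and no comparison passed (Th3/Th3 minus wild type 0.05, SE 0.09, adjusted p = 0.804). Of the same list Ddit3 (CHOP) rose by 1.39 and Nupr1 by 2.16, while the eIF2alpha kinase gene Eif2ak1 fell by 0.59 and the eIF2alpha phosphatase subunit gene Ppp1r15a by 0.49 (limma adjusted p = 0.000149, 0.00143, 0.0163 and 0.0155). Eif2ak1 lost its call without wild type replicate 2 or 3 (0.0548 and 0.0623) and Ppp1r15a without wild type replicate 3 (0.0600), and the count of 6 called was 3 and 2 without wild type replicate 2 or 3, and 4 without Th3/Th3 replicate 2. In Th3/+ against wild type 0 of the 108 tested genes in these 7 lists were called in limma, beside 0.0282% of all probe sets. At an unadjusted p under 0.05 there were 4, and the 108 include Slc7a11.

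**Figure D4:**
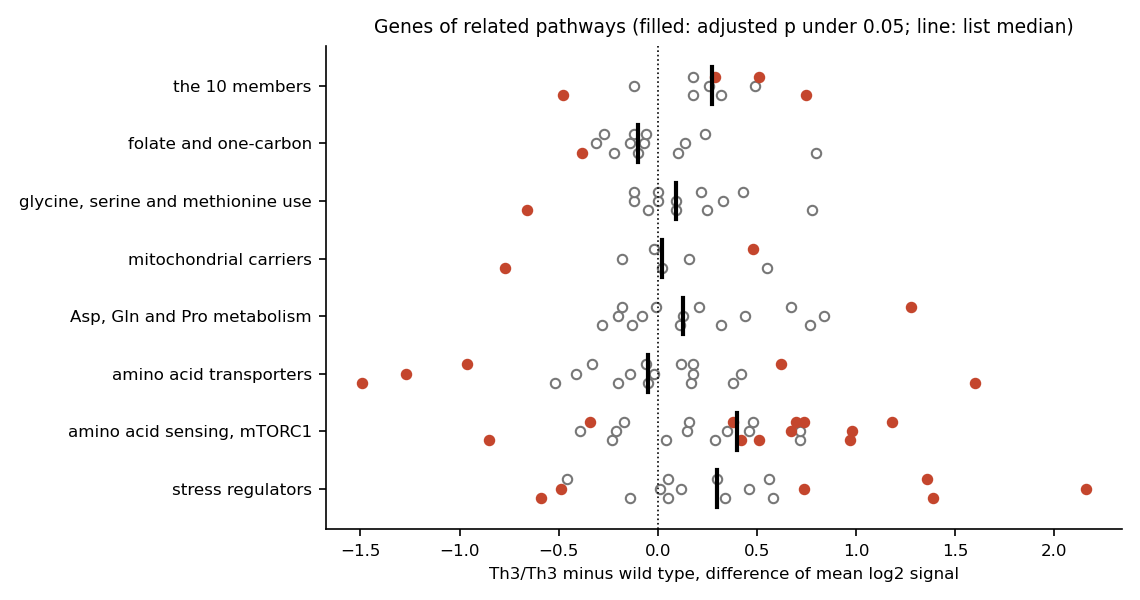
Th3/Th3 minus wild type difference of mean log2 signal (x axis) for each tested gene of the members and 7 related lists (y axis), filled red where the limma adjusted p was under 0.05, with a black line at each list's median. The members' median is 0.27, those of the folate and transporter lists are -0.10 and -0.05, and the sensing list has the highest, 0.40. The transporter list drawn includes Slc7a11, whose filled point is of a gene kept through its Th3/Th3 arrays alone.

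The genes most like Slc7a5 over the 9 arrays, the member with the smallest adjusted p against wild type, were Tmem131l, Tcp11l2, Pi16, Specc1 and Mfsd2b, with Pearson r of 0.951, 0.951, 0.949, 0.948 and 0.946. These are descriptions over 9 arrays that fall into 3 genotypes, and the points share arrays and genotype. Tcp11l2 had means of 10.48 in wild type, 10.86 in Th3/+ and 9.39 in Th3/Th3 cells, and Tmem131l 9.68, 10.01 and 8.63, the same order of the genotype means as Slc7a5. Pi16 was near background, at 4.35 to 4.59.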

How the data were processed

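Expression was measured on whole-transcript arrays, 1 per sample (9 samples). The authors deposited 1 value per probe set and array, taken as log2 values from their range (2.12 to 14.2 outside the control block). MAS5 is named in the submitters' processing notes, while the background correction, the summary method and the build were not given in the sources used here. Array medians were 4.97 to 5.05, so the deposited log2 values were used as they stand. Arrays have no read depth, so their number limits the precision.

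Of 35556 probe sets, 6617 with identifiers below the first annotated one were left out as the control block. Of the others 21789 have 1 gene symbol, 1621 several and 5529 none listed. A probe set was kept (17742 in all) if at least 3 arrays had it over that array's 40th percentile. The 9 arrays entered 1 linear model with a mean for each genotype (limma 3.58.1, R 4.3.3, eBayes with a mean-variance trend), with two-sided tests adjusted by Benjamini-Hochberg. An exact permutation of 3 against 3 samples cannot pass 0.05, so calls rest on limma's moderated variance.

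The members, lists and alternatives were chosen with earlier results of these data known. Named are all members, from each list up to 4 genes called in Th3/Th3 against wild type by smallest adjusted p and any called in Th3/+, and the 5 genes with the highest Pearson r with the member of smallest adjusted p. Mthfd1, Sfxn1, Atf4, Slc6a9, Rragd, Rptor and the cell markers were named outside this rule, after their values were seen. A gene with several probe sets is represented by the brightest on average. The fit was run on simulated arrays with independent noise, which lacked the sex imbalance and the arrays that stood apart. That run therefore says nothing about those features. Promoters were searched for a single motif on both strands. Alternatives were other scalings, filters and variance models, fewer arrays, a replicate block and sex by Xist.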

Additional observations from a re-analysis of the deposited data

How the results depend on the processing

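Over the alternatives no called difference of a member changed direction. In Th3/Th3 against wild type Asns was called under 5 of 19 alternatives (adjusted p 0.0305 to 0.130), Psat1 and Mthfd2 under 13 each (0.00582 to 0.0945 and 0.0182 to 0.0930) and Slc7a5 under 16 (0.00964 to 0.0725). Members called there numbered 4, and 1 with the arrays of the compared genotypes alone, 1 with sex as a covariate, 5 without both replicates 1 of the Th3 genotypes and 0 to 4 with 1 array left out. In Th3/Th3 against Th3/+ they numbered 2 (1 to 3 with 1 array left out, and 3 without both replicates 1).

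Probe sets called numbered 2181 in Th3/Th3 against wild type (1444 to 2310 with 1 array left out, and 2552 without both replicates 1 of the Th3 genotypes). In Th3/Th3 against Th3/+ they numbered 1290 (585 to 1412, and 798 with the compared genotypes alone). In Th3/+ against wild type they numbered 5, with 10 under the stricter filter, 0 with the compared genotypes alone, 3 without both replicates 1 of the Th3 genotypes and 1 to 12 with 1 array left out. Against the midpoint they numbered 14, with 2 after median centring, 2 with no filter, 2 with no trend, 38 under the stricter filter, 3 with sex, 1 without both replicates 1 of the Th3 genotypes and 1 to 33 with 1 array left out. The cause of these changes was not tested.

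The labels do not say what a replicate number marks. In their deviations from the genotype means the 9 same-numbered pairs of samples correlated by -0.125 to 0.355 (6 over 0.1, 1 below 0). The 18 other pairs correlated by -0.352 to 0.252 (4 over 0.1, 12 below 0), so same-numbered samples were more often alike. Deviations sum to 0 within a genotype, so the values of the other pairs are not separate from those of the same-numbered pairs. As not every same-numbered pair was over 0.1, the main model has no term for replicate number. That limit was a choice, and a replicate block was fitted as an alternative. Whether same-numbered samples share a source was not tested. With the replicate block 2470, 6, 1513 and 3 probe sets were called in these comparisons, in the order homozygote and heterozygote against wild type, homozygote against heterozygote, and midpoint. Members called against wild type were then 3, as Asns was lost (adjusted p = 0.0637). More transporters other than Slc7a11 were called than in the main fit.

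Signs turned only for differences near 0 that were not called. With 1 array left out, Th3/+ minus wild type ranged from -0.05 to 0.14 for Shmt2 and from -0.04 to 0.19 for Slc38a2. Th3/Th3 minus Th3/+ ranged from -0.08 to 0.01 for Asns, -0.09 to 0.01 for Shmt1, -0.02 to 0.27 for Shmt2 and -0.05 to 0.08 for Slc3a2. The midpoint difference ranged from -0.07 to 0.03 for Shmt1, -0.14 to 0.05 for Shmt2 and -0.20 to 0.03 for Slc38a2. Without both replicates 1 of the Th3 genotypes, Th3/Th3 minus Th3/+ was 0.03 for Shmt1 and -0.05 for Slc3a2, and the midpoint difference of Shmt2 was 0.06. Shmt1, near the array medians, is limited by signal over background.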

Other observations

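The genes below fall outside the naming rule and were chosen after their values were seen. Slc16a10, which carries aromatic amino acids, held 9.22, 9.31 and 9.57 in Th3/Th3 and 9.92, 10.04 and 10.06 in Th3/+ cells. It fell by 0.64 in Th3/Th3 against Th3/+ (limma adjusted p = 0.0149), a call lost without Th3/+ replicate 2 or 3 or Th3/Th3 replicate 2 (0.0690, 0.0591 and 0.0510). Its wild type arrays held 9.65 to 9.86, between the other genotypes. Mtr, methionine synthase, held 6.78 to 6.90 in Th3/+ and 5.87 to 6.45 in Th3/Th3 cells and fell by 0.62 (adjusted p = 0.0476), a call lost without any 1 array except Th3/Th3 replicate 3 (0.0570 to 0.143).

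Among the stress regulators Cebpg, which forms dimers with ATF4, rose by 0.74 and Trib3, a pseudokinase induced by ATF4, by 1.36 in Th3/Th3 against wild type (limma adjusted p = 0.0237 and 0.0265). Trib3 held 7.77, 6.95 and 6.13 on the Th3/Th3 arrays and 5.43 to 5.84 on the wild type arrays. Both calls were lost without any 1 wild type array or without Th3/Th3 replicate 2 (0.0527 to 0.0766 for Cebpg and 0.0524 to 0.0928 for Trib3). Other genes of this list did not pass in that comparison, among them Chac1 (0.12), Atf3 (0.01) and Atf5 (0.58, limma adjusted p = 0.808, 0.979 and 0.0561).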
